A study of Homo sapiens with 6 samples.

Results

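The small RNA processing and silencing machinery was examined here as 10 genes, DROSHA, DGCR8, XPO5, DICER1, TARBP2, AGO1, AGO2, AGO3, AGO4 and DDX6. They were chosen by name, and every probe set whose platform annotation named a member was taken (10 of the 21356 genes that any probe set named, and 35 of the 54613 probe sets). Of the 35, 28 named a member alone and 7 named a member together with a second gene. The cells were NTERA2/D1, an established line from a human testicular teratocarcinoma with the features of embryonal carcinoma, and no genetic change was made to them. The knockdown group was 3 arrays of cells transfected with siRNA against human VAMP7, a SNARE protein of the late endosomal pathway. Its reference was 3 arrays of cells transfected with a nonspecific scrambled siRNA, so every sample had received an siRNA and no untransfected cells were compared. In each group the siRNA was given 24 h after plating and total RNA was purified after 72 h of transfection. The comparison asks whether lowering VAMP7 goes along with a difference in the transcripts of this machinery.

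In animal cells a microRNA is cut from its primary transcript in the nucleus by the Microprocessor, a complex of the RNase III enzyme DROSHA and the RNA-binding protein DGCR8. Exportin-5, the product of XPO5, carries the hairpin to the cytoplasm, where DICER1 and its partner TARBP2 cut it to a short duplex. An Argonaute protein keeps 1 strand as a guide and, with GW182 proteins and the helicase DDX6, represses the messages that the guide pairs with. A transfected siRNA enters the same Argonaute proteins, and AGO2 is the Argonaute best known for cutting a fully matched target.

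None of the 35 probe sets differed between knockdown and scrambled cells at an adjusted p under 0.05. The difference nearest to the threshold was that of DDX6, whose brightest probe set read 1.21-fold higher on the knockdown arrays and had an adjusted p of 0.709. The brightest probe sets of DROSHA, XPO5, TARBP2, AGO3 and AGO4 had log2 fold changes between -0.060 and 0.035. Those of DICER1, DGCR8, AGO1 and AGO2 were at 0.13, 0.11, 0.088 and 0.077.

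All 4 probe sets of DGCR8 also named MIR1306, the gene of a microRNA whose hairpin lies inside the DGCR8 gene on chromosome 22. The mature arms are shown because the name of a Microprocessor subunit and that of a Microprocessor product share these probe sets. They are given 5′ to 3′ as RefSeq lists them for GRCh38.p14, the 5p arm at chr22:20086072-20086093 and the 3p arm at chr22:20086112-20086129, both on the plus strand, with the seed (bases 2 to 8) in capitals.
hsa-miR-1306-5p: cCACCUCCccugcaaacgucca
hsa-miR-1306-3p: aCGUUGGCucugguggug
The seeds differ, so the arms belong to separate seed groups. The array was read from total RNA with probe sets for longer transcripts, and no value here is a level of a mature microRNA. The other probe sets that named 2 genes were 3 that listed AGO2 and CASC7. CASC7 is now a synonym of AGO2 in the RefSeq gene table, so these 3 were read as AGO2 probe sets here. The alternatives with 1 value a gene used only probe sets that list 1 name, and there AGO2 stood for 225827_at alone and DGCR8 had no value.

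VAMP7 fell, as a check of the labels. Its probe set read 137, 175 and 149 on the knockdown arrays, against 2487, 2617 and 2741 on the scrambled arrays, so 5.87% of the scrambled signal remained. Of all 54613 probe sets it was the 1 called by limma. Median intensity was 64.3 to 67.5 on the knockdown arrays and 58.8 to 65.1 on the scrambled arrays. Knockdown replicate 1 stood apart, with a first principal component score of 59.4, against -21.5 to -4.76 for the other arrays. The member values that moved most over the omission of each array are given with those values below, and those that changed sign after the results. The ratio of the 3′ to the 5′ control probe set of beta-actin, a sign of RNA integrity, was 2.31 to 2.73 on the knockdown arrays and 2.27 to 3.43 on the scrambled arrays. The value of 3.43 was that of scrambled replicate 3. The same ratio for GAPDH was 0.950 to 0.996 on the knockdown arrays and 0.941 to 0.989 on the scrambled arrays. All 8 embryonal carcinoma markers measured (of 10 listed) had a mean above 1000, among them LIN28A, NANOG and SOX2. So did 2 of 6 fibroblast, 2 of 4 endothelial and 2 of 4 neural markers measured, and 0 of 5 leukocyte and 0 of 4 muscle markers. The brightest NANOG probe set was lower on every knockdown array than on any scrambled array (3629 to 4283 against 4314 to 5151). Its log2 fold change was -0.28 (adjusted p = 0.755). The other brightest probe sets were at 0.22 for SOX2, 0.088 for SALL4, 0.081 for LIN28A and 0.036 for DNMT3B. Those of DPPA4, L1TD1 and PODXL were at -0.016, -0.028 and -0.12. A dimmer SOX2 probe set was higher on every knockdown array (4554 to 4642 against 3542 to 4550). The summed intensity of the 8 markers overlapped, at 85033 to 97539 in knockdown and 77232 to 97702 in scrambled. The summed intensity of 4 endothelial markers was 2901 to 3541 on the knockdown arrays and 2517 to 2865 on the scrambled arrays. Of their brightest probe sets, that of VWF separated the groups (1396 to 1863 against 1129 to 1217). Those of PECAM1, TEK and CDH5 overlapped. The log2 fold changes were 0.42 for VWF, 0.34 for PECAM1, -0.063 for TEK and -0.045 for CDH5, and none was called. A second PECAM1 probe set, at a mean of 77.2, was at -0.33, with every knockdown array below every scrambled array. Still dimmer PECAM1 probe sets were at 0.17, -0.16 and -0.076. The part of the endothelial sum in the results was not tested. Sums of the fibroblast, leukocyte, neural and muscle markers overlapped between the groups, and PTPRC, the defining leukocyte marker, averaged 16.8 on its brightest probe set. Fewer cells of a type and less RNA per cell cannot be told apart in such bulk samples. The labels call the replicates biological but do not say whether they were separate cultures, so the spread between arrays may be technical.

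DROSHA, the nuclear RNase III of the Microprocessor, was measured by 1 probe set, 218269_at. It read 4266, 4322 and 4341 on the knockdown arrays, against 4434, 4493 and 4217 on the scrambled arrays. The groups overlapped and the knockdown arrays lay within the range of the scrambled arrays. The log2 fold change, taken here and below as knockdown minus scrambled on the log2(intensity + 50) scale, was -0.023 (with a limma SE of 0.092, a 95% interval of -0.24 to 0.20 and an adjusted p of 0.981), among the narrowest intervals of the members. It ran from -0.050 to -0.0050 over the omission of each array.

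DGCR8, the RNA-binding subunit that positions DROSHA on the hairpin, was read by the 4 probe sets that also name MIR1306. The brightest, 64474_g_at, read 877, 949 and 749.9 on the knockdown arrays, against 707, 801 and 868 on the scrambled arrays, and the groups overlapped. Probe set 91617_at read 758, 715 and 751 on the knockdown arrays, against 642, 709 and 569.9 on the scrambled arrays. Probe set 218650_at read 689.7, 696 and 682 on the knockdown arrays, against 653, 558 and 669 on the scrambled arrays. On 91617_at and 218650_at every knockdown array lay above every scrambled array, with 6.57 and 12.4 units between the nearest arrays. Their log2 fold changes were 0.20 (with a limma SE of 0.11, a 95% interval of -0.063 to 0.47 and an adjusted p of 0.807) and 0.13 (adjusted p = 0.874). The dimmest DGCR8 probe set, 219811_at, had the largest log2 fold change of the 4, 0.34 (SE 0.17, adjusted p = 0.785), with 181 to 299 on the knockdown arrays and 169 to 207 on the scrambled arrays. It was at 0.51 without knockdown replicate 1, its lowest knockdown array (adjusted p = 0.672), and at 0.21 without knockdown replicate 3, its highest (adjusted p = 0.869). The other 3 also moved with single arrays. Probe set 64474_g_at, at 0.11, was at 0.035 without scrambled replicate 1 and 0.20 without knockdown replicate 3. Probe set 218650_at was at 0.056 without scrambled replicate 2, and 91617_at at 0.13 without scrambled replicate 3. All 4 lay above 0, with a median of 0.17, and none passed.

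XPO5 encodes the export receptor for hairpin precursors. Its brightest probe set, 223056_s_at, read 2778, 2613 and 2445 on the knockdown arrays, against 2457, 2522 and 2693 on the scrambled arrays. The log2 fold change was 0.029 (with a limma SE of 0.10, a 95% interval of -0.21 to 0.27 and an adjusted p of 0.977), and the groups overlapped. Probe set 223057_s_at read 887 to 1065 on the knockdown arrays and 819 to 941 on the scrambled arrays (log2 fold change 0.17, SE 0.11). The dimmest, 223055_s_at, read 333 to 382 on the knockdown arrays and 299 to 334 on the scrambled arrays (log2 fold change 0.19, SE 0.11). The 3 probe sets had the same sign, and the brightest gave the smallest difference. Over the omission of each array 223057_s_at ran from 0.11 (without knockdown replicate 3) to 0.23, and 223055_s_at from 0.16 to 0.25.

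DICER1, the cytoplasmic RNase III that cuts the hairpin to a duplex, had 6 probe sets, the most of any member. The brightest, 212888_at, read 3353, 2864 and 2702 on the knockdown arrays, against 2689, 2792 and 2620.1 on the scrambled arrays. Knockdown replicate 1 was the highest of the 6 arrays, and the groups overlapped. The log2 fold change was 0.13 (with a limma SE of 0.12, a 95% interval of -0.14 to 0.40 and an adjusted p of 0.881), or 0.043 without knockdown replicate 1. Probe set 213229_at read 1075, 769.6 and 856 on the knockdown arrays, against 1004, 819 and 875 on the scrambled arrays, with a log2 fold change of -0.0069 (SE 0.15), and its highest value again came from knockdown replicate 1. Probe set 206061_s_at was at 0.14 (SE 0.15), with scrambled replicate 3 the highest of its 6 arrays, and it was at 0.28 without that array and 0.041 without scrambled replicate 1. The other 3, 216260_at, 216281_at and 216280_s_at, averaged 35.0, 10.8 and 5.38 over all arrays, all below the median probe set (58.5). Of the dim probe sets, 216260_at read 28.7 to 64.8 on the knockdown arrays and 6.03 to 42.8 on the scrambled arrays, a log2 fold change of 0.41 with an SE of 0.22 (adjusted p = 0.799). That size depended on the arrays and on the offset, at 0.23 without scrambled replicate 2, 0.59 without scrambled replicate 3, 0.74 at an offset of 16 and 0.25 at an offset of 100.

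TARBP2, the double-stranded RNA-binding partner of DICER1, was measured by 2 probe sets that differed in sign. The bright 203677_s_at read 1492, 1633 and 1682 on the knockdown arrays, against 1771, 1524 and 1727 on the scrambled arrays. Its log2 fold change was -0.06 (with a limma SE of 0.11, a 95% interval of -0.32 to 0.20 and an adjusted p of 0.947), with the groups overlapping, and it ran from -0.12 to -0.011 over the omission of each array. The dimmer 239389_at read 72.7, 66.7 and 61.8 on the knockdown arrays, against 67.6, 29.3 and 69.0 on the scrambled arrays. The scrambled group was spread by replicate 2, and the log2 fold change of 0.18 (SE 0.17) was -0.015 without that array.

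**Figure D1:**
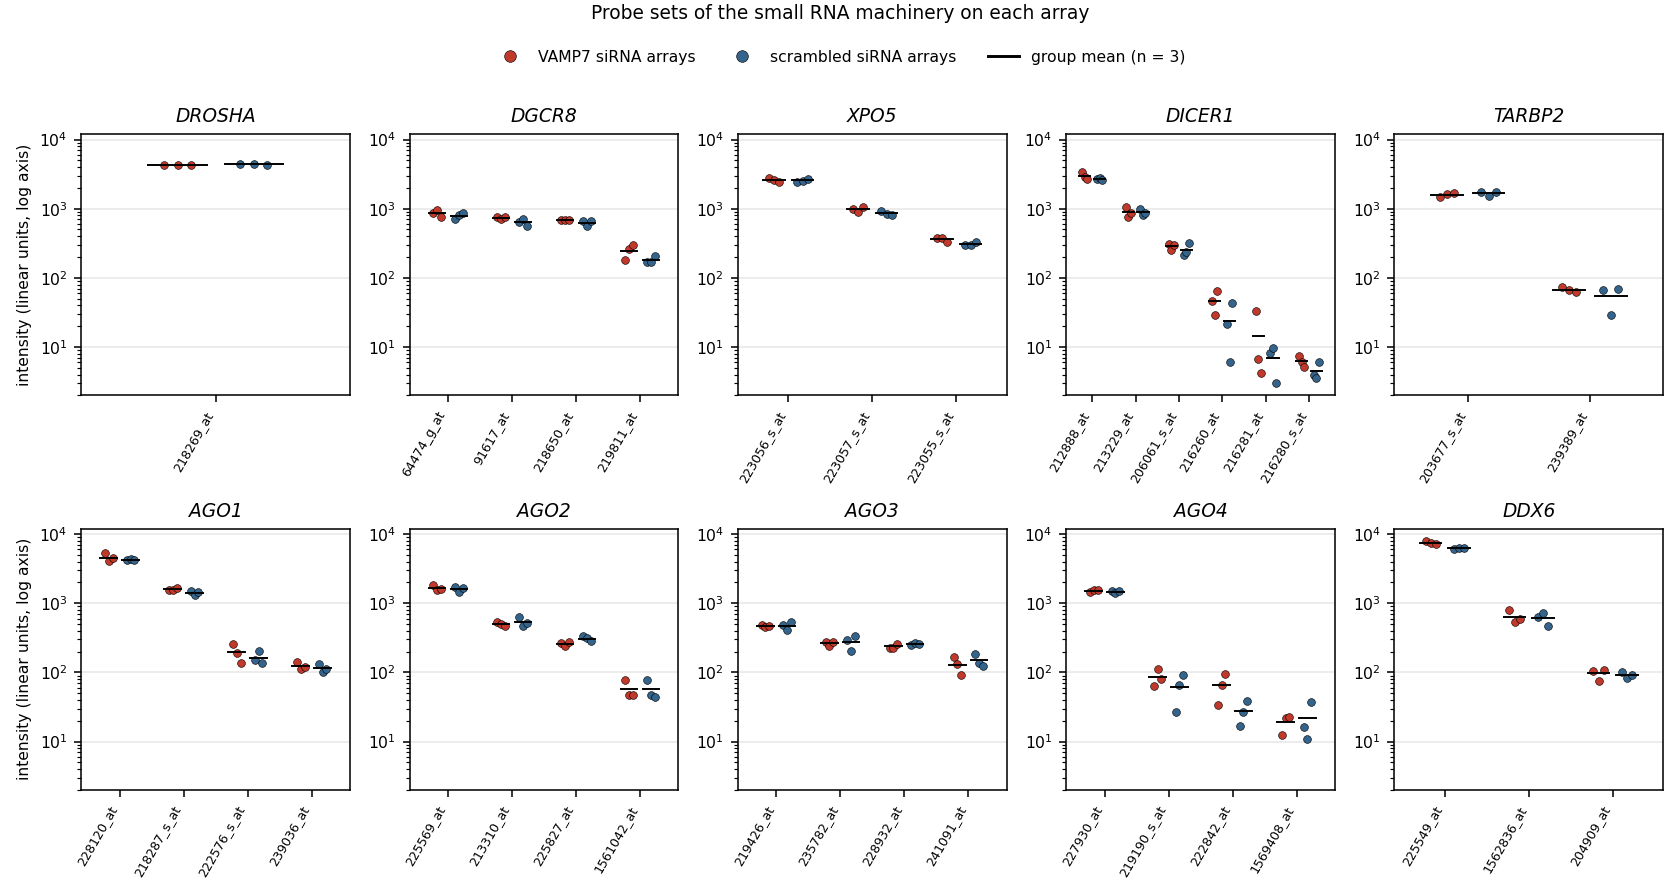
Intensity (linear units on a log axis) of each member probe set on the 3 VAMP7 siRNA arrays (red) and the 3 scrambled siRNA arrays (blue), with a bar at each group mean (n = 3). The groups separate on 5 of the 35 probe sets (14.3%, against 12.4% over the array), among them the bright DDX6 probe set 225549_at. A gene's probe sets differ widely in brightness.

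AGO1, AGO3 and AGO4 lie side by side on chromosome 1, in the order AGO4, AGO1, AGO3 in the RefSeq gene table, while AGO2 lies on chromosome 8. All encode Argonautes, the proteins that hold the guide strand. The brightest AGO1 probe set, 228120_at, read 5229, 4047 and 4451 on the knockdown arrays, against 4258, 4315 and 4258 on the scrambled arrays. Scrambled arrays were nearly alike, with an SD of 33.1, and the knockdown arrays lay on both sides of them, with an SD of 601. The log2 fold change was 0.088 (with a limma SE of 0.12, a 95% interval of -0.20 to 0.37 and an adjusted p of 0.924), and it was -0.011 without knockdown replicate 1. On the second, 218287_s_at, every knockdown array exceeded every scrambled array. It read 1528, 1564 and 1673 on the knockdown arrays, against 1479, 1319 and 1446 on the scrambled arrays, a log2 fold change of 0.16 (with a limma SE of 0.10, a 95% interval of -0.078 to 0.40 and an adjusted p of 0.827). The dimmer 222576_s_at and 239036_at were at 0.20 (SE 0.20) and 0.08 (SE 0.12), so all 4 AGO1 probe sets lay above 0 with all arrays and none passed. Probe set 222576_s_at was at 0.028 without knockdown replicate 1 and 0.38 without knockdown replicate 3. Probe set 239036_at was at 0.0080 without knockdown replicate 1, 0.014 without scrambled replicate 2 and 0.16 without scrambled replicate 1. For 218287_s_at the range was 0.11 to 0.19.

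AGO2, the Argonaute with well-known target-cutting activity, gave values that depended on the probe set. The brightest, 225569_at, which lists AGO2 and CASC7, read 1843, 1569.8 and 1625 on the knockdown arrays, against 1689, 1432 and 1648 on the scrambled arrays, a log2 fold change of 0.077 (with a limma SE of 0.12, a 95% interval of -0.20 to 0.35 and an adjusted p of 0.933). It was at 0.0099 without knockdown replicate 1 and 0.0056 without scrambled replicate 2. Probe set 225827_at, the only AGO2 probe set that lists no other name, read 264, 242 and 275 on the knockdown arrays, against 330.1, 309 and 287 on the scrambled arrays. There every knockdown array lay below every scrambled array, the only member probe set of which this held. Its log2 fold change was -0.21 (with a limma SE of 0.10, a 95% interval of -0.45 to 0.037 and an adjusted p of 0.78), from -0.25 to -0.17 over the omission of each array. Probe set 213310_at read 537, 507 and 474 on the knockdown arrays, against 639, 468 and 524 on the scrambled arrays (log2 fold change -0.086, SE 0.13). The dim 1561042_at was at 0.0081 (SE 0.17). Neither the brightest nor the separated probe set passed.

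AGO3 had 4 probe sets, all with log2 fold changes below 0. The brightest, 219426_at, read 479.5, 460.0 and 471 on the knockdown arrays, against 489.8, 406 and 527 on the scrambled arrays, a log2 fold change of -0.0046 (with a limma SE of 0.12, a 95% interval of -0.28 to 0.28 and an adjusted p of 0.997). The knockdown arrays lay between the lowest and the highest scrambled array. The others, 235782_at, 228932_at and 241091_at, were at -0.028, -0.10 and -0.15 (SE 0.17, 0.10 and 0.19), with overlapping groups on each. The sign of 3 of the 4 turned when single arrays were left out, 228932_at being the exception at -0.16 (without knockdown replicate 3) to -0.074.

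AGO4 was read brightly by 1 of its 4 probe sets, 227930_at, which had 1439.8, 1542 and 1528 on the knockdown arrays, against 1513, 1388 and 1499 on the scrambled arrays. The groups overlapped, and the log2 fold change was 0.035 (with a limma SE of 0.10, a 95% interval of -0.20 to 0.26 and an adjusted p of 0.969). Probe set 222842_at had the largest log2 fold change of the members, 0.55 (with a limma SE of 0.21, a 95% interval of 0.041 to 1.05 and an adjusted p of 0.744), but at a mean of 46.1 it was dimmer than the median probe set. It read 34.0, 66.1 and 94.6 on the knockdown arrays, against 16.8, 27.1 and 38.0 on the scrambled arrays, and the lowest knockdown array lay below the highest scrambled array. Without knockdown replicate 1 it was at 0.75 (adjusted p = 0.648), and without knockdown replicate 3 at 0.36 (adjusted p = 0.826). The size also depended on the offset, at 0.86 with an offset of 16 and 0.36 with an offset of 100. Probe set 219190_s_at was at 0.31 (SE 0.25), or 0.064 without scrambled replicate 1 and 0.51 without scrambled replicate 3, and the dimmest, 1569408_at, at -0.039 (SE 0.16). The bright probe set and the dim 222842_at therefore gave differences of unlike size for the same gene.

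DDX6, a DEAD-box helicase of P-bodies that acts with Argonautes and decapping factors in translational repression, had the smallest unadjusted p of the members. Its probe set 225549_at, the brightest of the 35, read 7897, 7383 and 7290.3 on the knockdown arrays, against 6036, 6324 and 6252 on the scrambled arrays. The groups did not overlap, and the lowest knockdown array was 966 units above the highest scrambled array. The means were 7523 ± 327 in knockdown and 6204 ± 149.9 in scrambled (SD, n = 3 each), and the log2 fold change was 0.28 (with a limma SE of 0.095, a 95% interval of 0.051 to 0.50 and an adjusted p of 0.709), a 1.21-fold difference. It was at 0.24 to 0.30 over the omission of each array, with adjusted p from 0.741 to 0.817. The other DDX6 probe sets gave less. Probe set 1562836_at read 788, 534 and 585 on the knockdown arrays, against 624, 711 and 475 on the scrambled arrays, a log2 fold change of 0.07 (SE 0.19). Probe set 204909_at read 105, 75.8 and 108 on the knockdown arrays, against 101, 81.7 and 90.9 on the scrambled arrays, a log2 fold change of 0.045 (SE 0.13). Both had overlapping groups, and their intervals, -0.38 to 0.52 and -0.26 to 0.35, include the value of the bright probe set.

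**Figure D2:**
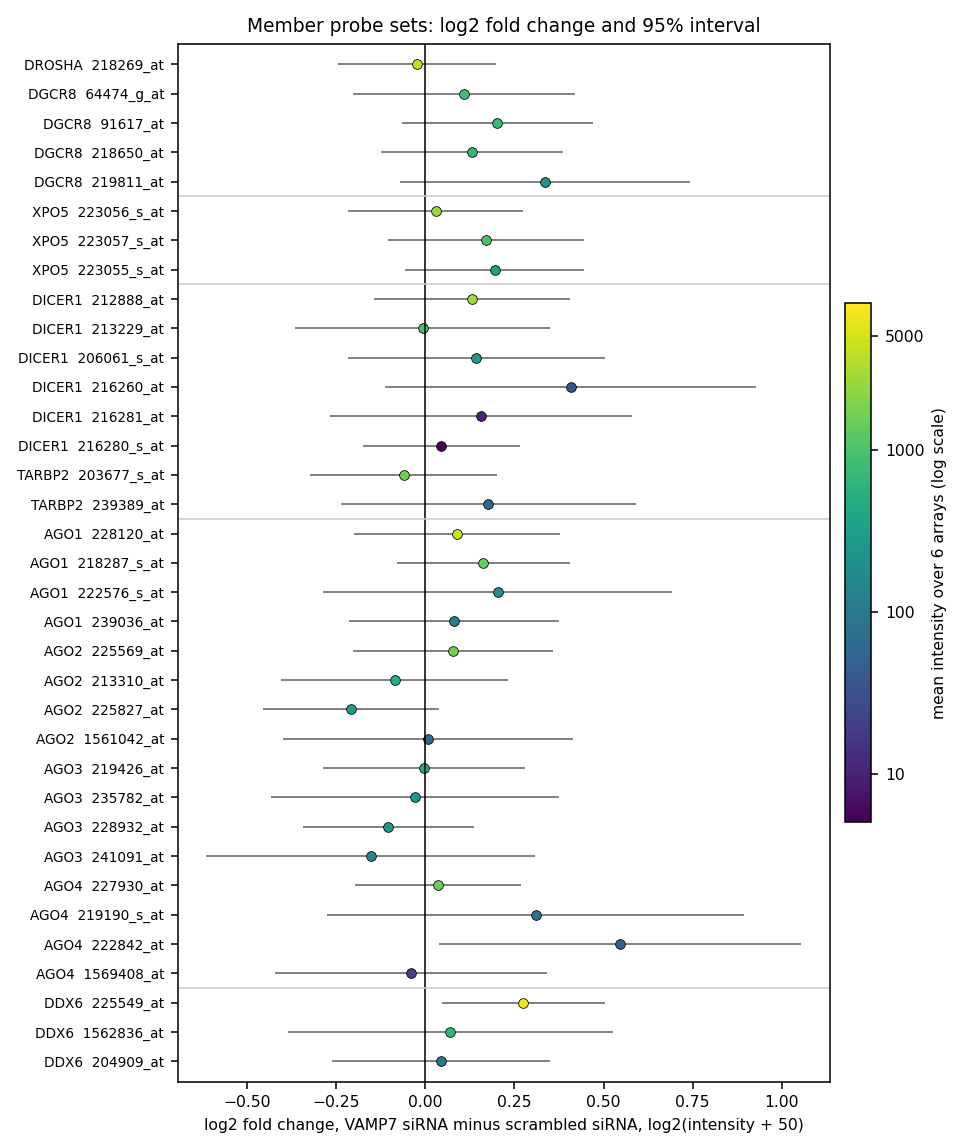
Log2 fold change (VAMP7 siRNA minus scrambled siRNA, on the log2(intensity + 50) scale) of the 35 member probe sets with the 95% interval from limma, by gene and role, coloured by mean intensity. The intervals of all but DDX6 225549_at and AGO4 222842_at include 0, and the probe sets of AGO2, AGO4, DICER1 and TARBP2 lie on both sides of 0.

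As a group, 0 of the 35 member probe sets were called by limma, where the share called over the whole array was 0.00183% (1 of 54613). At an unadjusted p under 0.05 there were 2 (5.71%), DDX6 225549_at and AGO4 222842_at, both higher, against 6.62% over the array (4.13% higher). This count was 0 without scrambled replicate 1, 1 without knockdown replicate 2 or 3 or scrambled replicate 2, and 3 without knockdown replicate 1 or scrambled replicate 3. The groups did not overlap on 5 member probe sets (14.3%), 4 with the knockdown above and 1 below, against 12.4% over the array (7.28% above and 5.15% below). The members' shares on these counts were close to those of the array. Log2 fold changes above 0 were more frequent among the members, 25 of 35 (71.4%), than over the array (53.8%), and the median was 0.080 against 0.016. With each array centred on its median the members' median was 0.038 (22 above 0) and that of the array -0.027 (43.7% above 0). With array weights the members' median was 0.044 (24 above 0) and that of the array 0.011. Probe sets of a gene share its transcripts and are not independent. Taking the brightest of each gene left 7 of 10 above 0, with a median of 0.056. The median over the 35 was 0.028 without knockdown replicate 1 (20 above 0) and 0.032 without scrambled replicate 2 (21 above 0), and 0.13 without knockdown replicate 2. For the brightest probe set of each gene, the 95% intervals lay within folds of 0.801 and 1.41, so these arrays leave room for changes of that size in some members.

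**Figure D3:**
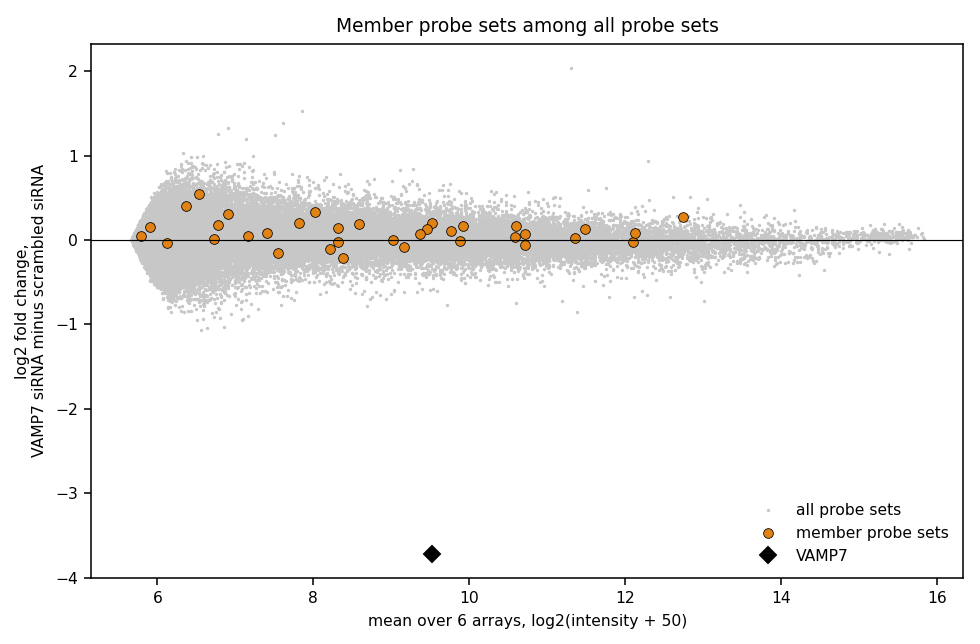
Log2 fold change (VAMP7 siRNA minus scrambled siRNA) against the mean of log2(intensity + 50) over the 6 arrays for all 54613 probe sets (grey), the 35 member probe sets (orange) and VAMP7 (black diamond). The members lie within the grey cloud at every brightness, from -0.21 to 0.55, while VAMP7 lies at -3.71.

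Other genes of the pathway were taken from 7 lists of 105 genes, 100 of them measured by 266 probe sets that named a single gene. None of the 266 was called by limma in either direction. At an unadjusted p under 0.05 there were 13 (4.89%), 9 higher and 4 lower, against 6.62% over the array. The groups did not overlap on 29 (10.9%), 16 with the knockdown above and 13 below, against 12.4% over the array. Of the 266, 145 (54.5%) lay above 0, against 53.8% over the array, with a median of 0.032 against 0.016. Microprocessor cofactors, which include the helicases DDX5 and DDX17, had 18 of 34 probe sets above 0 (median 0.024). The genes of smallest p in that list, taken on their brightest probe set, were the RNA-binding protein HNRNPA1 at 0.18 (adjusted p = 0.877) and the splicing factor SRSF3 at -0.23 (adjusted p = 0.852). At an unadjusted limma p under 0.05 there were 5 of the 34 probe sets (14.7%), 4 higher and 1 lower, against 6.62% over the array. The groups did not overlap on 6 of the 34 probe sets (17.6%), 3 with the knockdown above and 3 below, against 12.4% over the array. The log2 fold changes of the list ran from -0.44 to 0.59. Dimmer probe sets of HNRNPA1 and HNRNPA2B1 were among those with the knockdown above, and they are named here after their values were seen. HNRNPA1 222040_at read 1089, 1006 and 895 on the knockdown arrays, against 601, 738 and 599 on the scrambled arrays (log2 fold change 0.59, adjusted p = 0.608). HNRNPA2B1 225107_at, for an RNA-binding protein linked to microRNA processing, read 2882, 2546 and 2307 on the knockdown arrays, against 1656, 1807 and 1924 on the scrambled arrays (log2 fold change 0.51, adjusted p = 0.614), while the brightest HNRNPA2B1 probe set was at 0.11.

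Precursor export and Dicer partner genes had 18 of 31 probe sets above 0 (median 0.054), with the exonuclease DIS3L2, which degrades uridylated precursors, at 0.14 (adjusted p = 0.877) and TSNAX, a subunit of the nuclease C3PO, at -0.17 (adjusted p = 0.885). Chaperones that load Argonaute and its import receptor had 12 of 21 above 0 (median 0.045), with the co-chaperone STIP1 at 0.09 (adjusted p = 0.918) and DNAJA2 at -0.17 (adjusted p = 0.867). In that list 2 probe sets (9.52%, against 6.62% over the array) had an unadjusted limma p under 0.05, both lower. The lowest log2 fold change there was -0.48. GW182 and deadenylation genes had 35 of 63 above 0 (median 0.035). In that list PAN2, the catalytic subunit of a poly(A) nuclease, read 1326, 1075 and 1153 on the knockdown arrays, against 864, 838 and 953 on the scrambled arrays. Its log2 fold change was 0.40 (adjusted p = 0.662), with no overlap of the groups. CNOT6, a deadenylase of the CCR4-NOT complex, was at 0.30 on its brightest probe set (adjusted p = 0.709) and at 0.04 on its other (adjusted p = 0.964).

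Decapping and P-body genes, the list nearest in role to DDX6, had 27 of 49 probe sets above 0 (median 0.019), with the decapping scaffold EDC4 at 0.23 (adjusted p = 0.837) and the translational repressor GIGYF2 at 0.17 (adjusted p = 0.828). Argonaute-associated RNA-binding proteins had 24 of 45 above 0 (median 0.0072). There GEMIN4, a protein found with Argonaute and the SMN complex, was at -0.36 (adjusted p = 0.778) on its brightest probe set and at 0.15 on a second. TRIM71, a let-7 target of stem cells, read 12085, 14161 and 14499 on the knockdown arrays, against 14903, 15493 and 16353 on the scrambled arrays. Its log2 fold change was -0.20 (adjusted p = 0.81), and every knockdown array lay below every scrambled array. Genes of the PIWI and piRNA pathway, which works in the germ line, had 11 of 23 above 0 (median -0.0094) and were mostly dim, with 10 of 23 at or above the median signal. MAEL was at -0.40 (adjusted p = 0.753) and TDRD6 at 0.38 (adjusted p = 0.708), at means of 29.3 and 22.5.

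**Figure D4:**
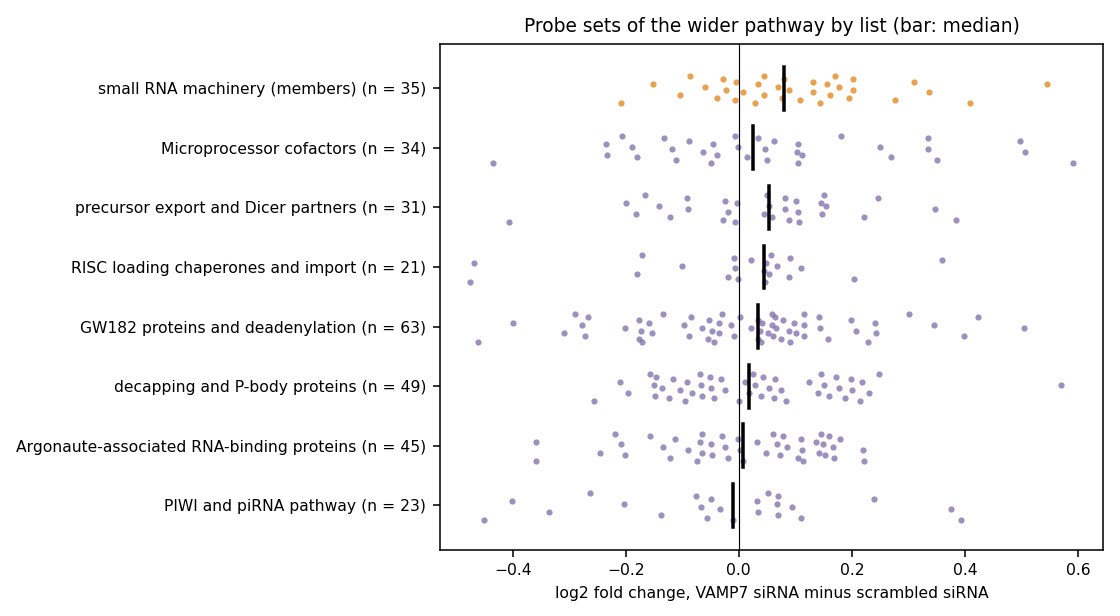
Log2 fold change (VAMP7 siRNA minus scrambled siRNA) of each probe set in the member list (orange, n = 35) and in the 7 lists of other pathway genes (purple), with a bar at each list's median. The medians run from -0.0094 (PIWI and piRNA pathway) to 0.080 (members), and no point passed the test.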

How the data were processed

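The files hold the authors' deposited intensities, linear and already summarised to probe sets of a 3′ array. RMA is named, without a version, in the submitters' processing notes. It would give log2 values, whereas these were linear. The array medians were unequal. Every array had a 2% trimmed mean between 500.067 and 500.074, and any scaling by the authors is not stated in the labels. The background step and software are not stated in the labels. Genes came from the platform annotation, updated by gene identifier to RefSeq (GRCh38.p14, for names and gene order). Of 54675 probe sets, 41091 named 1 gene, 1801 several and 11721 none, and 62 array controls were left out.

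Log2(intensity + 50) was fitted over 54613 probe sets with lmFit and eBayes (limma 3.58.1, R 4.3.3) as knockdown minus scrambled. Benjamini-Hochberg adjustment ran over all of them, with calls at an adjusted p under 0.05. Dim means below the median probe set, 58.5. Detection calls were not used, and precision is limited by the 3 arrays a group. An exact permutation test of these groups cannot reach below p = 0.1, so it was left out. The code was tested on simulated data. Members and lists were chosen with earlier results of these data known. By the rule set, named genes were VAMP7, all member probe sets and, per wider list, the 2 genes of smallest p on their brightest probe set. HNRNPA2B1 and a dimmer HNRNPA1 probe set were added after their values were seen. Alternatives covered the offset, the features tested, normalization, eBayes options, array weights, a replicate block and omission of each array.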

Additional observations from a re-analysis of the deposited data

How the results depend on the processing

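VAMP7 stayed below 0 and called in every alternative, from -3.96 to -3.42. No member probe set was called in any alternative, the lowest adjusted p being 0.567, nor was any probe set of the wider lists. The probe sets called over the whole array numbered 2 with probe sets averaged per gene and 3 with an intensity trend and robust eBayes, and 1 in the other alternatives. The 2 members of 35 at an unadjusted p under 0.05, DDX6 225549_at and AGO4 222842_at, both higher, did not stay the same pair. At an offset of 16 there was 1 (AGO4 222842_at), with an intensity trend 1 (DDX6 225549_at), and with median centring 1 (AGO2 225827_at, lower). With quantile normalization the 2 were DDX6 225549_at and AGO2 225827_at, lower, and with array weights there were 3, DGCR8 219811_at joining the pair. DDX6 225549_at was the 1 of 29 among probe sets at or above the median signal and the 1 of 9 with 1 probe set a gene, and there were 0 of 9 with probe sets averaged per gene. The count ran from 0 to 3 over the omission of each array. Members above 0 numbered 5 of 9 with 1 probe set a gene and 6 of 9 averaged per gene. Both used only probe sets that list 1 name, so DGCR8 was left out and AGO2 was read by 225827_at (-0.21) in place of 225569_at (0.077). The members' median ran from 0.028 to 0.13 over the omission of each array.

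Of 528 member log2 fold changes computed in alternatives, 497 kept their sign and 31 reversed, over 14 probe sets. AGO2 1561042_at was at -0.019 with quantile normalization, -0.034 with median centring and -0.065 with array weights. Median centring put XPO5 223056_s_at at -0.013 and AGO4 227930_at at -0.0075. Over the omission of each array AGO1 228120_at ran from -0.011 to 0.17, AGO2 1561042_at from -0.12 to 0.15, AGO2 213310_at from -0.18 to 0.027, AGO3 219426_at from -0.10 to 0.068, AGO3 235782_at from -0.20 to 0.098, AGO3 241091_at from -0.29 to 0.012, AGO4 1569408_at from -0.15 to 0.12 and AGO4 227930_at from -0.0034 to 0.064. DDX6 1562836_at ran from -0.083 to 0.19, DDX6 204909_at from -0.013 to 0.15, DICER1 213229_at from -0.14 to 0.093, DICER1 216281_at from -0.039 to 0.27, TARBP2 239389_at from -0.015 to 0.28 and XPO5 223056_s_at from -0.015 to 0.075. The cause was not tested. The same replicate numbers did not mark arrays that deviate together (correlations of -0.0098, 0.0069 and -0.017 for replicates 1, 2 and 3), and with the replicate block 1 probe set was called over the array and 2 members had an unadjusted p under 0.05, AGO4 222842_at and DICER1 216260_at, while DDX6 225549_at was at an unadjusted p of 0.0596.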
